A study of Mus musculus with 6 samples.

Results

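The transcripts of 7 genes that steer myeloid progenitors toward granulocytes were measured in a mouse leukemia: the 5 C/EBP genes Cebpa, Cebpb, Cebpd, Cebpe and Cebpg, together with Spi1 and Gfi1. They were picked by name as C/EBP, Spi1 and Gfi1 transcripts, with earlier results of these data known, and are 7 of its 36083 genes. The leukemia is a model of blast crisis chronic myeloid leukemia (bcCML), the acute stage of chronic myeloid leukemia, in which immature cells accumulate. RNA-seq was done on 6 libraries, of which 3 were labelled WT and 3 were labelled Sdc1 KO, Sdc1 being the gene for syndecan-1, a heparan sulfate proteoglycan of the cell surface. In 5 of the 7 genes the value was lower in every library labelled Sdc1 KO and the difference passed the test. Cebpg was higher and passed it too, while Cebpd was lower in each of these libraries but too low in level to be tested. Of all 12155 genes tested, 31.3% passed as lower and 29.3% as higher, and 66.7% had groups that did not overlap.

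The groups differed in the donor. Primitive KLS cells (Kit+, lineage-negative, Sca1+) came from WT or Sdc1-/- mice of B6 background and, in both groups alike, received both BCR-ABL and NUP98-HOXA9 by retrovirus, were sorted for both oncogenes and given to NSG mice, which lack lymphocytes of their own. Lineage-negative leukemic cells were sorted from the spleens, so both oncogenes, the host strain and the organ were shared by all libraries and none of the libraries is of normal cells. The labels give NSG as the host, while the general methods of the study name irradiated CD45.1 mice for primary transplants, so the host of these cells is taken from the labels. The labels give no age for the donors. The sources do not say whether the libraries of a group came from separate mice, and 1 legend of the study describes such WT libraries as technical replicates, so the SDs and p-values below measure the spread between libraries, which may be technical. The Sdc1 allele disrupts the sequence that encodes the signal peptide, and a value per gene does not show which part of a transcript was read, so it does not check the genotype. The 3 libraries labelled WT read 1.75, 1.21 and 1.51 for Sdc1, and the 3 labelled Sdc1 KO read 3.85, 3.80 and 4.12, a log2 fold change of 0.99 (limma adjusted p = 1.2e-04). Because Sdc1 mRNA was higher where it was labelled as knocked out, every direction below refers to the libraries as labelled, called WT-labelled and KO-labelled libraries.

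C/EBP proteins are basic leucine zipper transcription factors that bind DNA as pairs, with themselves or with each other. Cebpa is needed to form granulocyte-macrophage progenitors, Cebpe for the late steps of granulocyte maturation with its secondary granules, and Cebpb for granulocyte production under stress, while Cebpg lacks an activation domain of its own and can pair with the others. Spi1 encodes PU.1, an ETS family factor needed for granulocytes and macrophages, and Gfi1 encodes a zinc finger repressor that favors granulocytes over monocytes. BCR-ABL is known to lower C/EBPα protein by blocking translation of its mRNA, a step that RNA-seq does not measure.

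Sequence upstream of the start site is shown for 3 C/EBP genes. They were chosen because Cebpa and Cebpg are neighbors on chromosome 7 that changed in opposite directions. Cebpb was lower like Cebpa, though by less. Cebpg (minus strand, 35046422 to 35056573) and Cebpa (plus strand, 35119293 to 35121928) are transcribed away from each other and lie 62719 bases apart in GRCm38. Cebpb (plus strand, 167688915 to 167690418) is on chromosome 2, and like Cebpa it is a gene with a single exon. The stretches come from RefSeq promoter windows on GRCm38.p6, each from 250 bases before to 50 bases after a start site, and are printed 5′ to 3′ up to the first exon base. Capitals mark matches on either strand to ATTGC (the arm of a C/EBP site), GGAA (the ETS core that PU.1 binds) or AATC (the core that Gfi1 binds).
Cebpa, chr7:35119043-35119292, plus strand: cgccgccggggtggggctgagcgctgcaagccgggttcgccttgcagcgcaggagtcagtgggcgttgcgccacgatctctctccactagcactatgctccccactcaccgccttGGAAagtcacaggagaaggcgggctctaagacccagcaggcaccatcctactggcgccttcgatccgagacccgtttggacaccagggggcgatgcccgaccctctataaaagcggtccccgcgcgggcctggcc
Cebpg, chr7:35056574-35056816, minus strand: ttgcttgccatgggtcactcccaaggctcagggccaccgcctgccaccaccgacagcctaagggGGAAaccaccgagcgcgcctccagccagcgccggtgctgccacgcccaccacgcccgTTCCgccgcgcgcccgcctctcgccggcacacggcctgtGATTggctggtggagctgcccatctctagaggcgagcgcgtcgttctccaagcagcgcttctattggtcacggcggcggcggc
Cebpb, chr2:167688665-167688914, plus strand: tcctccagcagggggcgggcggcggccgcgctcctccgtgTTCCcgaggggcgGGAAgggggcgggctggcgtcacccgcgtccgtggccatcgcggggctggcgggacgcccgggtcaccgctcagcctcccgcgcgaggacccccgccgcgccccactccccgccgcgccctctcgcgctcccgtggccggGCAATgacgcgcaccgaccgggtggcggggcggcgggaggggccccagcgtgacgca

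The 3 motifs are short, and matches can overlap, since GATT, the reverse complement of AATC, shares letters with ATTGC, and AATC with GGAA. Among 32851 promoter windows, 26.4% held ATTGC, 96.0% held GGAA and 73.1% held AATC. Cebpb was the 1 member of the 4 with a window to hold ATTGC. The whole windows held 1 GGAA for Cebpa, 2 for Cebpb and 4 for Cebpg, beside a median of 3 over all windows, and AATC was found once for Cebpg and not for Cebpa or Cebpb. Gfi1 (chromosome 5, minus strand, 107716657 to 107726036) had 2 windows, with 1 and 5 matches to GGAA and 1 and 0 to AATC. Such matches are letters in a window and were not tested as binding sites. Cebpd (chromosome 16, 15887286 to 15891031), Cebpe (chromosome 14, 54710360 to 54712174) and Spi1 (chromosome 2, 91082390 to 91115756) are named only.

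Values per gene are TPM, a transcript abundance scaled to a common total, which divide reads by transcript length and so allow levels of different genes to be compared. They had been rescaled between libraries, with sums from 1048875 to 1058263 in the WT-labelled libraries and from 944973 to 951814 in the KO-labelled ones. Read depth is unknown, so no interval from counting error is given. Fold changes are on the log2(value + 1) scale, which understates changes of low genes, and a gene was called at a limma adjusted p under 0.05 among 12155 genes whose mean reached 1. Across genes, 29.3% were called higher and 31.3% lower in the KO-labelled libraries, so a call in itself was common. Groups that did not overlap were commoner still, at 66.7% of tested genes.

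The lowering of Cebpa brought it to 49.2% of its level in the WT-labelled libraries. Its values were 12.3, 11.6 and 11.3 there and 5.51, 5.88 and 5.90 in the KO-labelled libraries. The groups did not overlap, and their distance was many times the spread within either, with means of 11.7 ± 0.49 and 5.76 ± 0.22 (SD, n = 3 each). The log2 fold change was -0.91 (SE 0.051, 95% interval -1.03 to -0.79, limma adjusted p = 1.1e-05). Of the 12155 genes tested, 454 had a lower log2 fold change than Cebpa.

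Cebpe, the late granulocyte member, had the highest level of the family in both groups. It was valued at 30.4, 25.8 and 29.9 in the WT-labelled libraries and at 13.5, 13.1 and 13.9 in the KO-labelled ones, so that even the lowest WT library stood above every KO-labelled one. The mean went from 28.7 ± 2.50 to 13.5 ± 0.43 (SD, n = 3 each), or 47.0% of the WT level. This was the largest change among the tested members, with a log2 fold change of -1.03 (SE 0.066, 95% interval -1.19 to -0.88, limma adjusted p = 2.0e-05). The intervals of Cebpe, Cebpa and Spi1 overlapped one another.

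Cebpb, the member used under stress, changed less. Values of 11.6, 11.5 and 10.4 in the WT-labelled libraries stood against 7.66, 6.98 and 7.88 in the KO-labelled ones, again without overlap. Means were 11.2 ± 0.66 and 7.51 ± 0.46 (SD, n = 3 each), and the log2 fold change was -0.52 (SE 0.063, 95% interval -0.67 to -0.37, limma adjusted p = 4.0e-04). The interval lay outside those of Cebpa and Cebpe. Cebpb shares 312 exon bases with the antisense gene Tmem189, whose values were 22.8 to 26.0. The library kit keeps strand but the sources used here do not say whether the counting used it, so the level of Cebpb is uncertain to that extent.

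Cebpd, an acute-phase member, had the lowest level of the members in both labels. The WT-labelled libraries stood at 0.84, 0.65 and 0.78 and the KO-labelled ones at 0.28, 0.32 and 0.45, which did not overlap. With a mean under 1 it was outside the test. With no minimum mean, its log2 fold change was -0.38 (limma adjusted p = 0.0080). It shares 562 exon bases with the antisense gene Spidr, which had values of 6.78 to 9.49, well above its own. Whether the counting used strand is not stated, so the level and the difference of Cebpd are uncertain to that extent.

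Cebpg was the exception in the family, at 125% of the WT level. Its values were 9.78, 8.71 and 9.73 in the WT-labelled libraries and 11.2, 11.7 and 12.3 in the KO-labelled ones. Here too the groups stood apart, with means of 9.41 ± 0.60 and 11.8 ± 0.59 (SD, n = 3 each). The log2 fold change was 0.29 (SE 0.061, 95% interval 0.15 to 0.44, limma adjusted p = 0.0049), a modest rise that 9714 of the 12155 tested genes fell below. Exons of Cebpa, Cebpg and Gfi1 overlap other annotated transcripts by 51, 73 and 101 bases at most.

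Spi1, the gene of PU.1, was the most abundant member by far. The WT-labelled libraries read 111, 113 and 109, and the KO-labelled ones read 65.3, 58.9 and 54.0. The Sdc1 KO libraries were spread more widely than the WT libraries, yet the highest of them stayed well under the lowest WT library. Means were 111 ± 2.35 and 59.4 ± 5.66 (SD, n = 3 each), with a log2 fold change of -0.90 (SE 0.066, 95% interval -1.05 to -0.74, limma adjusted p = 3.8e-05).

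Gfi1, the repressor, had the smallest change among the members called lower. It stood at 9.08, 9.73 and 8.79 in the WT-labelled libraries and at 6.89, 6.84 and 6.87 in the KO-labelled ones, which were almost identical to one another. Means of 9.20 ± 0.48 and 6.87 ± 0.024 (SD, n = 3 each) gave a log2 fold change of -0.37 (SE 0.050, 95% interval -0.49 to -0.25, limma adjusted p = 6.5e-04). The WT libraries did not overlap these.

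**Figure D1:**
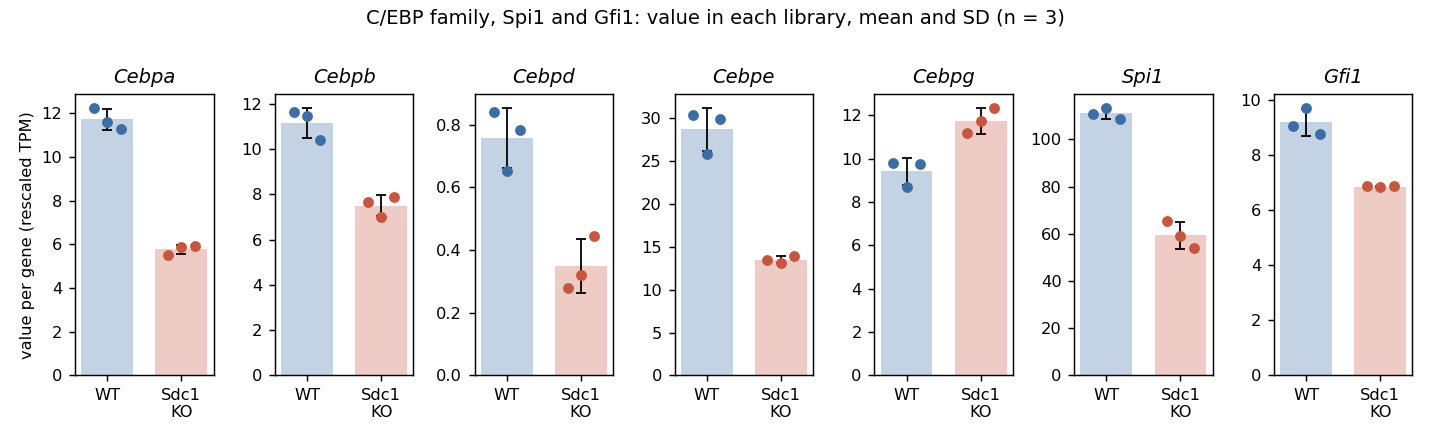
Value per gene (rescaled TPM, vertical axes starting at 0 and scaled per gene) for the 7 members; points are the 3 libraries of each label, bars the mean and error bars the SD. In Cebpa, Cebpb, Cebpd, Cebpe, Spi1 and Gfi1 every KO-labelled library lies below every WT-labelled library, and in Cebpg above.

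Counted together, 5 of the 6 tested members were called lower against 31.3% of all tested genes, and 1 was called higher against 29.3%. All 7 members had groups without overlap, against 66.7% of tested genes. The median log2 fold change of the tested members was -0.71, beside -0.0097 over all 12155 genes. Because the table's sums differed between the labels, the fit was repeated after setting each library to a total of 1000000, which moved the median of all genes to 0.12 and the calls to 43.5% higher and 19.6% lower. The members kept their directions and calls under that scaling. Cebpe was then at -0.89, Cebpa at -0.78, Spi1 at -0.75, Cebpb at -0.38, Gfi1 at -0.24 and Cebpg at 0.43 on the log2 scale. In bulk RNA, fewer cells of a type and less RNA per cell cannot be told apart.

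**Figure D2:**
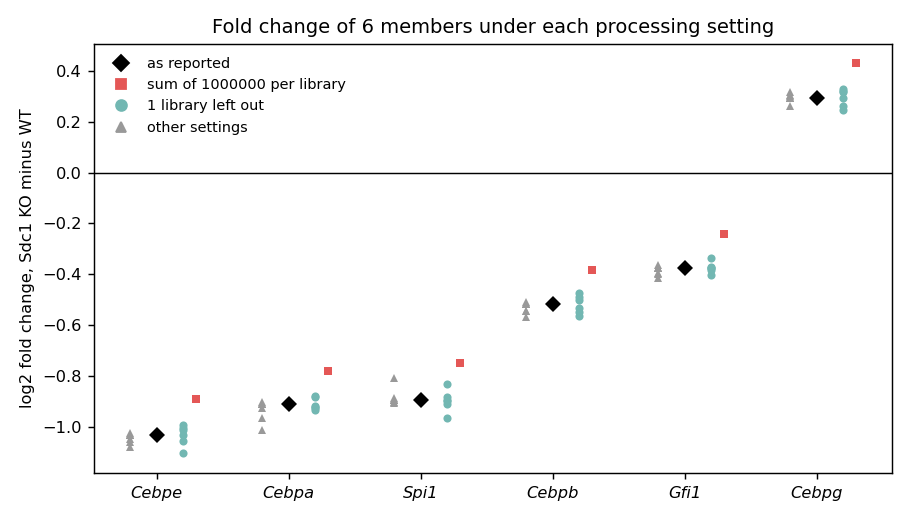
Log2 fold change (Sdc1 KO minus WT, vertical axis) of the 6 tested members as reported (diamond), after setting each library to a total of 1000000 (square), with 1 library left out (circles) and under the other settings (triangles). No point crosses 0; the square lies nearest to 0 for the 5 lower genes and farthest from 0 for Cebpg.

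Within each label the members were ordered by their mean level per length. In the WT-labelled libraries it ran Spi1, Cebpe, Cebpa, Cebpb, Cebpg, Gfi1 and Cebpd. The ranges of Cebpa and Cebpb over the libraries overlapped in that order, as did those of Cebpg and Gfi1. Within each WT-labelled library, though, Cebpa was slightly above Cebpb, at ratios of 1.01 to 1.08. The order of Cebpg and Gfi1 was not the same in every library. In the KO-labelled libraries the order was Spi1, Cebpe, Cebpg, Cebpb, Gfi1, Cebpa and Cebpd, with no overlap between neighbors. By mean, Cebpa thus went from the third place to the sixth, and Cebpg from the fifth to the third, where the WT places of both were shared with an overlapping neighbor. Relative to all 36083 genes, Spi1 was at percentile 96.4 in the WT-labelled libraries and 93.9 in the others.

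The make-up of the family was described by each gene's share of the summed C/EBP values, a measure chosen after the values were seen. The sum itself was 61.8 ± 3.33 in the WT-labelled libraries and 38.9 ± 1.41 in the KO-labelled ones (SD, n = 3 each), or 62.9% of the former. Cebpg made up 15.1%, 14.9% and 15.7% of it in the WT-labelled libraries and 29.3%, 30.9% and 30.5% in the others. Its share thus went up in every library, by 15.0 percentage points in the mean, while its own value was 125% of WT. Cebpe went from a mean share of 46.4% ± 1.93 to 34.7% ± 0.61, and Cebpa from 19.0% ± 0.87 to 14.8% ± 0.56 (SD, n = 3 each). Cebpb held 18.1% ± 1.47 and 19.3% ± 0.86, and its libraries overlapped (exact permutation p = 0.3, two-sided). For the other 4 genes the groups did not overlap, and the exact permutation p was 0.1, the smallest that 3 against 3 libraries can give.

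**Figure D3:**
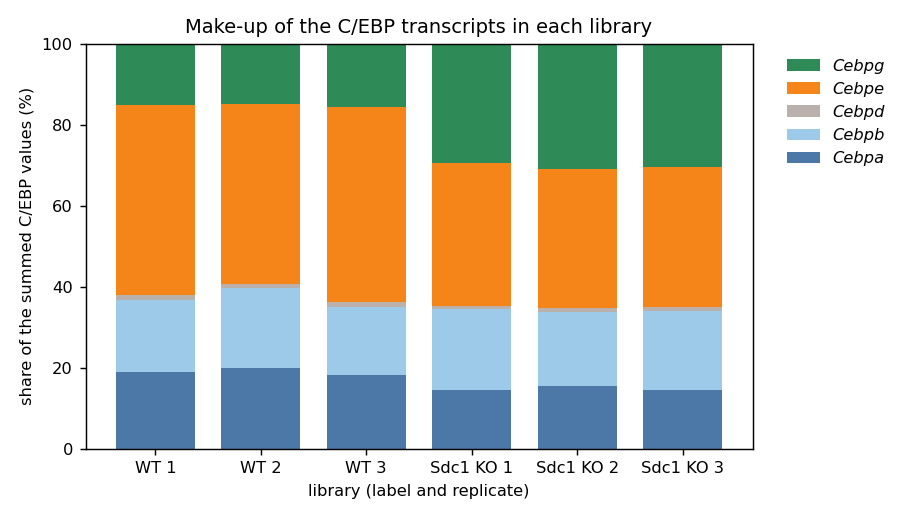
Share of the summed C/EBP values (%, vertical axis) held by each of the 5 genes in each of the 6 libraries, stacked to 100%. The Cebpg segment is 14.9% to 15.7% in the WT-labelled libraries and 29.3% to 30.9% in the KO-labelled ones, and the Cebpe segment is smaller in the latter.

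A ratio of 2 members within a library does not depend on how libraries were scaled. There were 9 such ratios, each compared by a two-sided exact permutation test that cannot go below 0.1, so none could pass 0.05. Cebpa to Cebpg ran from 1.16 to 1.33 in the WT-labelled libraries and from 0.478 to 0.501 in the KO-labelled ones, so the more abundant of the neighbors on chromosome 7 changed (log2 difference -1.34, exact permutation p = 0.1, adjusted p = 0.18). Spi1 to Gfi1 ran from 11.7 to 12.4 and from 7.86 to 9.47 in the same order of labels (log2 difference -0.49, exact permutation p = 0.1, adjusted p = 0.18). Cebpa to Cebpb went from 1.01 to 1.08 in the WT-labelled libraries to between 0.720 and 0.842 in the others. In contrast, Cebpa to Cebpe (log2 difference 0.063) and Cebpa to Spi1 (log2 difference -0.12) overlapped between the labels, each with an exact permutation p of 0.4 and an adjusted p of 0.45. Cebpa, Cebpe and Spi1 were thus lower by amounts that these libraries did not separate, which does not show that the amounts were equal.

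Gfi1 and Spi1 were also set against Irf8, a factor that favors monocytes over granulocytes. Irf8 was barely present, at 0.99, 0.61 and 0.70 in the WT-labelled libraries and 0.45, 0.55 and 0.59 in the KO-labelled ones, below the minimum mean. The ratio of Gfi1 to Irf8 ran from 9.14 to 16.0 and from 11.7 to 15.5, which overlapped (exact permutation p = 1). That of Spi1 to Irf8, 112 to 186 and 92.2 to 146, overlapped as well (exact permutation p = 0.2, adjusted p = 0.3). The ratio of Gfi1 to its paralog Gfi1b, which acts in erythroid cells and megakaryocytes, was 0.134 to 0.155 and 0.112 to 0.120 (exact permutation p = 0.1, adjusted p = 0.18). The remaining ratio, Cebpb to Cebpd, was 13.3 to 17.6 and 17.7 to 27.4, and its direction turned when 1 was added to both values.

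Genes that act on C/EBP proteins or pair with them were called in both directions. Of 8 tested, 3 were called higher and 1 lower, with a median log2 fold change of 0.063, against 29.3% and 31.3% of all genes. Trib2, a pseudokinase that directs C/EBPα to degradation, had values of 1.40, 2.25 and 1.21 in the WT-labelled libraries and 7.54, 7.70 and 7.11 in the KO-labelled ones. That was the largest change of this list, with a log2 fold change of 1.71 (SE 0.14, 95% interval 1.38 to 2.04, limma adjusted p = 6.3e-05). Its relative Trib1 went from a mean of 6.30 to 8.52 (log2 fold change 0.38, limma adjusted p = 6.9e-04). Cop1, the ubiquitin ligase that both recruit, had means of 71.6 and 74.6 and was not called (limma adjusted p = 0.13). Pcbp2, which encodes a protein of the family that binds Cebpa mRNA in BCR-ABL cells, had means of 472 and 495 (log2 fold change 0.067, 95% interval -0.0078 to 0.14, limma adjusted p = 0.11). Cop1, Pcbp2 and Calr were called higher when each library was set to a sum of 1000000 or quantile normalized. Ddit3, a C/EBP relative that pairs with the family, was lower, with means of 17.7 and 12.6 (log2 fold change -0.46, limma adjusted p = 0.0012), but 2 identifiers carry that symbol and the value is uncertain.

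Spi1 has relatives of the ETS family and partner factors, of which 10 of 13 were tested. Of these, 4 were called higher and 3 lower, with a median log2 fold change of 0.046. These shares lie near the 29.3% higher and 31.3% lower of all tested genes. Spic, its closest relative among those tested and a factor of iron-handling macrophages, had values of 6.17, 6.45 and 5.10 in the WT-labelled libraries and 1.47, 1.41 and 1.90 in the KO-labelled ones (log2 fold change -1.41, limma adjusted p = 4.2e-05). Ets1 went from a mean of 9.07 to 5.16 (log2 fold change -0.71, limma adjusted p = 1.5e-04). Erg, a factor of stem and progenitor cells, stood at 11.5, 10.8 and 11.2 in the former and at 22.2, 20.9 and 19.9 in the latter (log2 fold change 0.85, limma adjusted p = 1.5e-05). Etv6 was higher as well, with means of 27.3 and 32.1 (log2 fold change 0.23, limma adjusted p = 0.0013). Gata1, which opposes PU.1 in erythroid cells, had means of 78.4 and 82.6 (log2 fold change 0.074, limma adjusted p = 0.070) and was called higher under each of the 3 other scalings.

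The partners of Gfi1 were mostly higher while Gfi1 was lower. All 7 were tested, 5 were called higher and 1 lower, against 29.3% and 31.3% of all genes, and the median log2 fold change was 0.16. With a sum of 1000000 per library 6 were called higher and 0 lower by limma, where 43.5% and 19.6% of all genes were. Ehmt2, a histone methyltransferase, went from a mean of 33.1 to 56.6 (log2 fold change 0.76, limma adjusted p = 2.7e-05). Zbtb17, the partner through which Gfi1 reaches some promoters, went from 9.13 to 14.1 (log2 fold change 0.57, limma adjusted p = 8.8e-05). Kdm1a, the histone demethylase of the Gfi1 complex, went from 29.2 to 32.8 (log2 fold change 0.16, limma adjusted p = 0.017). Gfi1b had means of 64.6 and 59.5 (log2 fold change -0.12, limma adjusted p = 0.030). That call was lost with a sum of 1000000 per library, where its log2 fold change was 0.029, with quantile normalization, without a variance trend, and without either WT replicate 1 or 3 or Sdc1 KO replicate 1 or 3.

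**Figure D4:**
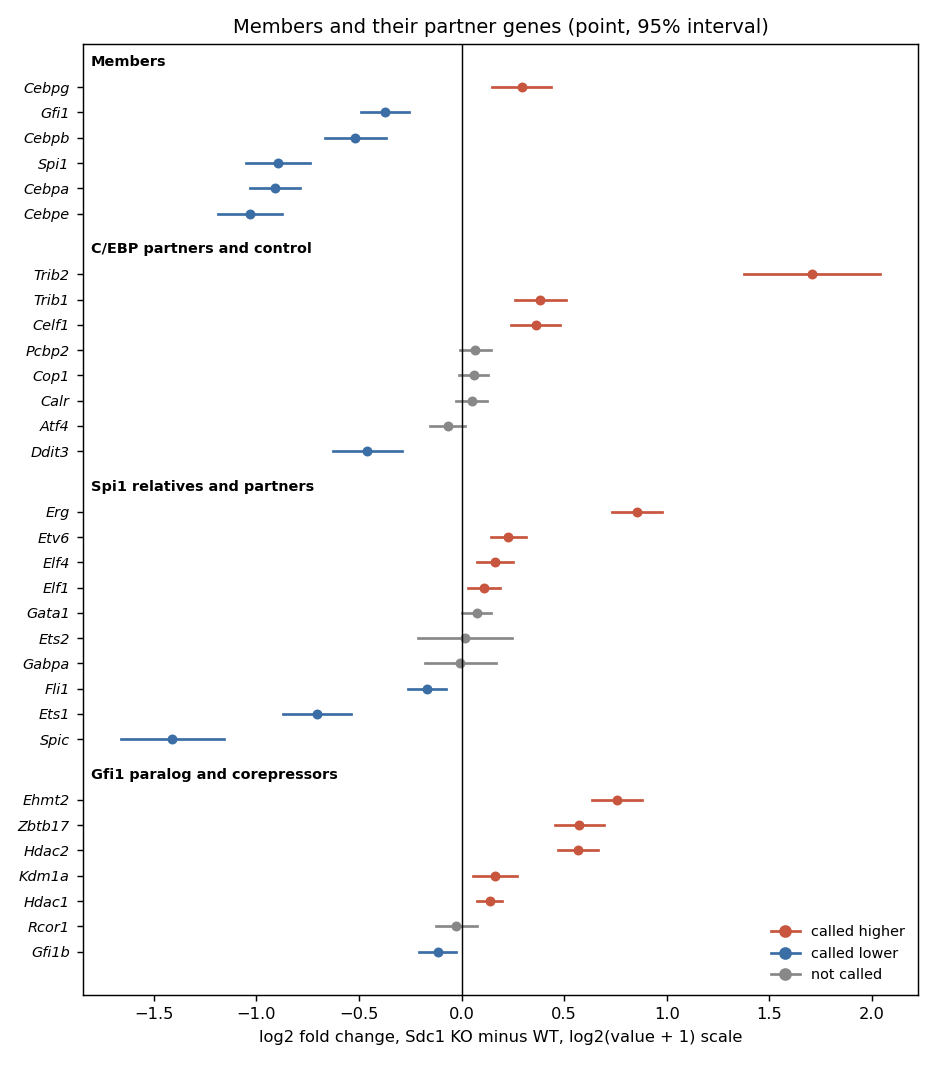
Log2 fold change (Sdc1 KO minus WT, horizontal axis) with its 95% interval for the tested members and the genes of 3 lists, red for genes called higher, blue for lower and grey for not called. Cebpg and 12 list genes lie to the right as called higher, and Trib2 (1.71) and Spic (-1.41) lie farthest out.

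Regulators of the monocyte branch were mostly low in level. Of 8, only 4 reached the minimum mean, with 1 called higher and 2 lower and a median log2 fold change of -0.037, against 29.3% and 31.3% of all genes. Id2, an inhibitor of basic helix-loop-helix factors, went from values of 37.5, 40.0 and 37.4 to 13.5, 13.9 and 14.6 (log2 fold change -1.39, limma adjusted p = 1.6e-06). Egr1, which favors macrophages, went from a mean of 15.5 to 13.8 (log2 fold change -0.16, limma adjusted p = 0.0094), a call lost with a sum of 1000000 per library. Its corepressor Nab2 went from 8.49 to 12.0 (log2 fold change 0.45, limma adjusted p = 2.7e-04). Klf4, a factor of monocytes, had means of 0.48 and 0.32 and was not tested. With no minimum mean, 4 of the list were called lower, beside 4091 of all 24714 genes then tested. With a sum of 1000000 per library 2 were higher and 1 lower, where 43.5% of all genes were called higher and 19.6% lower. Zeb2, a zinc finger repressor, was then called higher (log2 fold change 0.21, limma adjusted p = 0.017) and Egr1 was not called.

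Among 9 transcription factors of progenitors, 5 were called higher and 1 lower, against 29.3% and 31.3% of all genes. The median log2 fold change was 0.18. Meis1, a partner of HOXA9 in leukemia, stood at 13.4, 12.7 and 13.1 in the WT-labelled libraries and at 27.4, 29.5 and 28.9 in the KO-labelled ones (log2 fold change 1.07, limma adjusted p = 3.2e-06). Lef1 went from a mean of 0.59 to 1.51 (log2 fold change 0.66, limma adjusted p = 0.0038) and Myb from 70.4 to 91.0 (log2 fold change 0.37, limma adjusted p = 2.1e-04). Lef1 reached the minimum mean of 1 only through the KO-labelled libraries, where it was high, so its call is not independent of that filter. Ikzf1, a zinc finger factor of lymphoid and myeloid cells, was lower, with means of 98.2 and 78.6 (log2 fold change -0.32, limma adjusted p = 1.2e-04). Runx1, which acts upstream of Cebpa and Spi1, was at 15.1, 11.8 and 12.0 and at 12.1, 12.5 and 12.8, with overlap (log2 fold change -0.044, 95% interval -0.26 to 0.17). Gata2 had means of 161 and 166, also with overlap (95% interval of the log2 fold change -0.079 to 0.19), and was called higher with a sum of 1000000 per library. With a minimum mean of 5, 4 of the list were called higher, beside 2825 of all 8966 genes then tested. Without Sdc1 KO replicate 2, 3 of the list were called higher.

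Growth factor receptors known as C/EBP or PU.1 targets were mostly lower. Of 5 tested, 4 were called lower, against 31.3% of all genes, and 1 was not called. All 5 had a log2 fold change below 0, and the median was -0.70. Csf3r, the receptor for granulocyte colony-stimulating factor, had values of 3.94, 3.78 and 3.84 in the WT-labelled libraries and 1.92, 2.11 and 1.91 in the KO-labelled ones (log2 fold change -0.70, limma adjusted p = 8.1e-05). Csf1r, the receptor of the macrophage factor, went from a mean of 1.95 to 0.51 (log2 fold change -0.97, limma adjusted p = 1.1e-04). It reached the minimum mean of 1 only through the WT-labelled libraries. Csf2rb, a chain shared by the granulocyte-macrophage receptor and some interleukin receptors, went from 37.7 to 20.2 (log2 fold change -0.87, limma adjusted p = 6.8e-06). With a minimum mean of 5, only 2 of the list were called lower, since Csf1r and Csf3r were then not tested.

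Granule genes of the early and the late stage were called lower, every one that was tested, against 31.3% of all tested genes. The 7 primary granule genes, made at the promyelocyte stage, had a median log2 fold change of -0.65. Mpo, the gene of myeloperoxidase, went from a mean of 322 to 245 (log2 fold change -0.39, limma adjusted p = 8.4e-05), and Elane, the gene of neutrophil elastase, from 278 to 171 (log2 fold change -0.70, limma adjusted p = 1.8e-05). Ctsc, the protease that activates such enzymes, had the largest fall of the list, from 95.8 to 52.9 (log2 fold change -0.84, limma adjusted p = 1.8e-05), followed by Ms4a3, from 445 to 272 (log2 fold change -0.71). The 14 tested genes of secondary and tertiary granules and late neutrophils, many of them known Cebpe targets, had a median log2 fold change of -1.55. Mmp9, the gene of gelatinase, was valued at 11.8, 12.9 and 11.6 in the WT-labelled libraries and at 1.93, 2.43 and 3.11 in the KO-labelled ones (log2 fold change -1.92, limma adjusted p = 1.9e-05). Lcn2, the gene of lipocalin, went from a mean of 496 to 135 (log2 fold change -1.87, limma adjusted p = 3.1e-07). The difference between the early and late lists was not tested. With a sum of 1000000 per library, the primary granule gene Prss57 was no longer called.

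**Figure D5:**
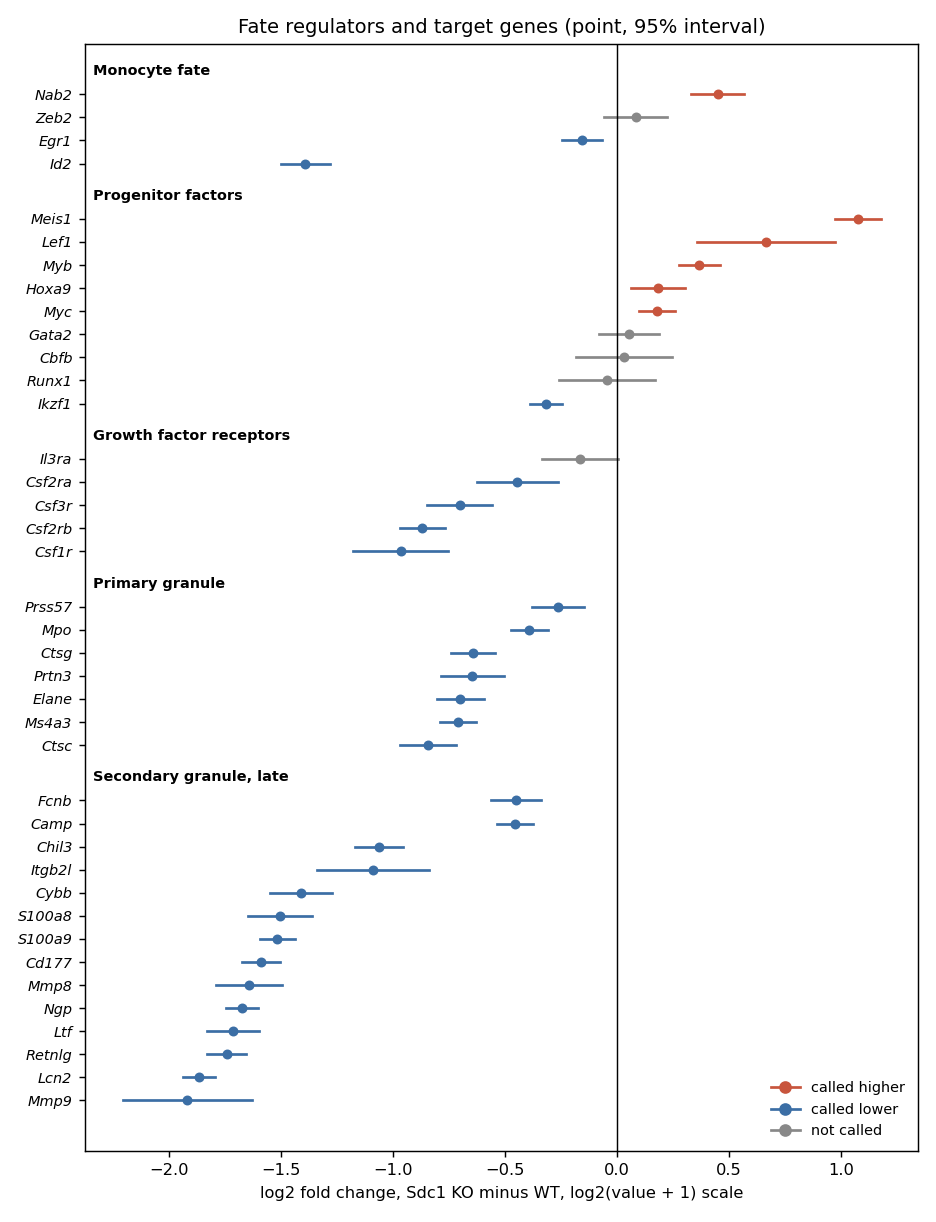
Log2 fold change (Sdc1 KO minus WT, horizontal axis) with its 95% interval for the tested genes of 5 lists, red for genes called higher, blue for lower and grey for not called. All 7 primary and all 14 secondary granule genes lie left of 0 with medians of -0.65 and -1.55, and Meis1 lies farthest right at 1.07.

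Some lists of markers of other cells were lower throughout and others went both ways. Their part in the differences above was not tested. Among all tested genes, 31.3% were called lower and 29.3% higher. All 7 tested monocyte and macrophage markers were called lower, with a summed value of 60.3 to 62.6 in the WT-labelled libraries and 21.0 to 23.6 in the KO-labelled ones. All 7 markers of mast cells, basophils and eosinophils were called lower, from a sum between 1080 and 1110 to one between 462 and 466. In both lists, some genes reached the minimum mean of 1 only through the WT-labelled libraries. Of 8 erythroid markers 5 were called lower and 3 higher, and of 6 tested megakaryocyte markers 4 lower and 2 higher. The erythroid sum was 9650 to 10132 in the WT-labelled libraries and 5541 to 5916 in the KO-labelled ones. The megakaryocyte sum overlapped, at 499 to 527 and 513 to 526. The genes of Ly6g and Itgam, antigens of mature myeloid cells used for lineage depletion, were present in both labels and lower in the KO-labelled libraries, at log2 fold changes of -1.72 and -1.56. Of the lymphocyte genes, Cd3e was listed at 0 in every WT-labelled library and Pax5 was at 0.044 or less throughout. Other genes of these lists were measured at higher levels, with Cd79b at 1.80 to 2.67 over the 6 libraries and Cd3d at 0.22 to 0.87. Nkg7, which encodes a protein of cytotoxic granules, had means of 340 and 286. Of 2 tested T and NK cell markers 1 was called lower, and the 1 tested B cell marker was not called. The 4 dendritic markers summed to 0.163 at most, and of 2 tested stromal or endothelial markers 1 was higher and 1 lower. Kit, the surface marker of progenitors, had means of 12.8 and 14.7 (log2 fold change 0.18, limma adjusted p = 0.018), and Cd34 of 47.4 and 39.9 (log2 fold change -0.24, limma adjusted p = 0.0019), the latter not called with a sum of 1000000 per library.

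The labels also differed in Y-linked transcripts, with Ddx3y at 0.016 or less in the WT-labelled libraries and at 12.1 to 14.1 in the KO-labelled ones. The sex of the donor cells and the genotype cannot be told apart in these libraries. Across genes, correlations of log2 values were 0.993 to 0.996 between libraries of a label and 0.968 to 0.972 between labels, where genes are not independent replicates.

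The genes whose profile over the 6 libraries was nearest to each member were found by the root mean square difference of log2(value + 1) after centering each gene on its mean. Nearest to Cebpa were Il10ra (0.032) and Pik3ap1 (0.033), to Cebpb Ube2l6 (0.019) and Nedd4l (0.033), and to Cebpe Arhgdig and Ly6c1 (both 0.034). For Cebpg they were Cfl2 (0.015) and Siah2 (0.025), for Spi1 Hfe (0.038) and Tm6sf1 (0.044), and for Gfi1 Hadh (0.016) and Cdh17 (0.017). None of the members was among another member's nearest 2 genes. With 2 groups of 3 libraries, such likeness mostly restates the difference between the labels.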

How the data were processed

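RNA-seq reads of 6 libraries (150 ng RNA each, single reads of 75 bases, stranded mRNA kit) were assigned by the authors to transcripts with kallisto and summarized per gene. The per-library signal deposited by the authors is TPM rescaled between libraries. The submitters' processing notes name mm10 and sleuth 0.30.0, while a kallisto version is not given in the sources used here. The authors' comparison table (effect sizes, p-values, q-values and variances) was not used. Gene symbols matched 35454 of 36083 identifiers in GENCODE M21 (GRCm38). Members and gene lists were chosen with earlier results of these data known, so they are not independent evidence.

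On the log2(value + 1) scale, 12155 genes whose mean reached 1 were fitted by label with limma 3.58.1 (R 4.3.3), using eBayes with a trended variance, and p-values were Benjamini-Hochberg adjusted over all of them (threshold 0.05). The test, planned for normalized values, was kept. Ratios and shares were compared by exact permutation. The genes named are the members, up to 2 called genes with the largest rise and fall per list, a fixed set of regulators, and the 2 nearest profiles per member; Cop1, Calr, Prss57, Zeb2, Cd79b, Cd3d, Nkg7 and the sort and sex genes were named after their values were seen. In all, 16 fits across genes were made, which varied the pseudocount, the minimum mean and the scaling, added a replicate block, dropped the variance trend or left out a library. Python 3.11.15, numpy 2.4.6, pandas 2.3.3, scipy 1.17.1 and matplotlib 3.10.9 were used.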

Additional observations from a re-analysis of the deposited data

How the results depend on the processing

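The 6 tested members kept direction and call in all 15 alternative fits. The log2 fold changes ranged from -1.01 to -0.78 for Cebpa, -0.57 to -0.38 for Cebpb, -1.10 to -0.89 for Cebpe, 0.24 to 0.43 for Cebpg, -0.97 to -0.75 for Spi1 and -0.42 to -0.24 for Gfi1. With a sum of 1000000 per library, 5286 genes were called higher and 2380 lower, against 3564 and 3810 as reported. Leaving out 1 library gave 6463 to 6960 called genes. Deviations of same-numbered libraries of the 2 labels had correlations of 0.15, -0.0083 and 0.018. Those of libraries with unlike numbers ran from -0.16 to 0.14. With 3 libraries per label, such values cannot settle whether same-numbered libraries were paired. With the replicate block, 3653 genes were called higher and 3971 lower, Cebpa stayed at -0.91, and no member's call changed. With 1 added to both values, the log2 ratio difference of Cebpb to Cebpd turned to -0.13 and that of Gfi1 to Irf8 to -0.17. Leaving out 1 library at a time, the latter ran from -0.11 to 0.29, below 0 without WT replicate 1 (-0.11) or Sdc1 KO replicate 1 (-0.022). Cebpd, Irf8 and Klf4 lie below the minimum mean, and with read counts unknown no limit from depth can be given for them.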
